A study of Mus musculus with 6 samples.

Results

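The 10 Krüppel-like factors described here, Klf2, Klf3, Klf4, Klf5, Klf6, Klf7, Klf9, Klf10, Klf13 and Klf15, were taken by symbol from a table of 23358 mouse genes, and all 10 were among the 14151 genes with enough counts to test. The cells were mesenchymal stem cells from the marrow of C57BL/6 mice, at passage 6 to 12 per the labels. The study compared 3 libraries of cells given a non-targeting control siRNA with 3 libraries of cells that received 50 nM of an siRNA against Dia2, and RNA was taken 24 h after the medium was changed. Both groups therefore received an siRNA after the same handling, which included 24 h of adhesion, and differ in the siRNA. No dose is recorded for the control siRNA, so an equal dose is not shown. Dia2 is the formin encoded by Diaph3, a protein that assembles unbranched actin filaments. A single siRNA sequence is given for Dia2, and nothing in the labels ties the 3 libraries of a group to separate cultures. The p-values therefore rest on the spread among these libraries, part or all of which may be technical.

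Krüppel-like factors are transcription factors that bind GC-rich and CACCC sequences through zinc fingers at the end of the protein. Klf2, Klf4, Klf5, Klf6 and Klf7 are mostly known as activators, Klf3 recruits the co-repressor CtBP, and Klf9, Klf10 and Klf13 can recruit the co-repressor Sin3. In stromal cells the family is best known for its part in fat cell formation, where Klf4, Klf5, Klf6, Klf9 and Klf15 are described as promoting it and Klf2, Klf3 and Klf7 as opposing it.

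RefSeq (GRCm38.p6) gave a promoter for 8 of the 10 genes, all but Klf5 and Klf10. Those of Klf2 and Klf4 are shown because these genes, known to respond to the kinase ERK5 and to MEF2 factors, rose together. Each is the 250 bases before the annotated start, on the strand of the gene. Capitals mark GC boxes (GGGCGG on either strand) and, in Klf2, the match to the MEF2 consensus, searched on both strands. The Klf2 sequence lies at chr8:72318812-72319061 (plus strand) and the Klf4 sequence at chr4:55532476-55532725 (minus strand).
Klf2: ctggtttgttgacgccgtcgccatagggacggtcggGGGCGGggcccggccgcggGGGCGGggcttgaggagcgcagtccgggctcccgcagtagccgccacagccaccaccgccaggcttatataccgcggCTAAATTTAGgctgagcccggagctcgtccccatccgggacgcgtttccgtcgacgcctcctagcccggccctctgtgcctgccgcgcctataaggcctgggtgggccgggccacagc
Klf4: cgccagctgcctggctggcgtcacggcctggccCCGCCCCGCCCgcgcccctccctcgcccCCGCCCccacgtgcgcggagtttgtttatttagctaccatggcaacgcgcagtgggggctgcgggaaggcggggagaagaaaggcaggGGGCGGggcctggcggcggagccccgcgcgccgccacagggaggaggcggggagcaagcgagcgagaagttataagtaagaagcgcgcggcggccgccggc

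The MEF2 match CTAAATTTAG begins 118 bases before the Klf2 start. Among the 8 promoters it was found in that of Klf2, against 2.92% of all 32851 promoters of this length. GC boxes were present in 7 of the 8, the exception being Klf9, against 32.7% of all promoters, and Klf4 held 4 of them, of which 2 share a base. CACCC, searched on both strands, was present in 6 of the 8, in all but Klf4 and Klf6, against 52% of all promoters. The 8 promoters were 59.2% to 78.4% G and C. The shares of all promoters were neither matched for this nor limited to tested genes. All of these are matches of letters, not measured binding sites.

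The library totals ranged from 70538768 to 110006338 counts, and all counts were even numbers, as if each fragment had added 2. The floor of 6 counts, or 3 fragments, stood at 0.0534 to 0.087 CPM (counts relative to library size, scaled by TMM factors), below the level of each of the 10 genes in each library. The ribosomal precursor Rn45s took 11.7% of counts in control replicate 3 and 10.9% in Dia2 replicate 1, against 6% to 7.41% in the other libraries, and calls of the 10 factors that change without these libraries are given both ways. Diaph3 fell 10.7-fold, from 83.2 ± 2.7 to 7.76 ± 0.532 CPM (SD, n = 3 each). Of 10 markers of mesenchymal stem cells 9 were higher with Dia2 siRNA and none lower. Over all genes tested 29.3% were higher and 29.9% lower. The summed level of these markers was 2219 to 2291 CPM in the control and 3166 to 3243 CPM in the Dia2 libraries. The remaining marker, Thy1, was at or near 0 throughout. Markers of blood cells and macrophages summed to 11.2 to 12.5 and 6.19 to 8.21 CPM, with 3 of 9 lower and 4 not tested. Endothelial markers summed to 2.06 to 2.17 and 1.78 to 2.2 CPM, with Vwf higher, Kdr lower and 3 of 7 not tested. The defining blood gene Ptprc and the defining endothelial gene Cdh5 were at or near 0. Epithelial markers, a check since Klf5 is known from epithelia, summed to at most 0.375 CPM. The part of these shifts in the results below was not tested, and in bulk RNA fewer cells of a type and less RNA per cell cannot be told apart.

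In the control cells Klf6, Klf3 and Klf9 were the most abundant of the 10 and Klf15 the least. Levels of different genes were compared by the deposited RPKM, which divides counts by gene length. Klf6 stood at 24.7 ± 1.08, Klf3 at 21.8 ± 1.64 and Klf9 at 15.5 ± 0.957 RPKM (SD, n = 3 each), and none of these 3 overlapped its neighbour. Klf10 followed at 9.71 ± 0.601, Klf4 at 6.23 ± 0.282 and Klf7 at 5.77 ± 0.407 RPKM, the ranges of Klf4 and Klf7 overlapping. Klf13 (4.32 ± 0.259), Klf2 (3.23 ± 0.0695) and Klf5 (1.25 ± 0.144 RPKM) came next, and Klf15 was last at 0.201 ± 0.0193 RPKM, each apart from the gene above it.

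**Figure D1:**
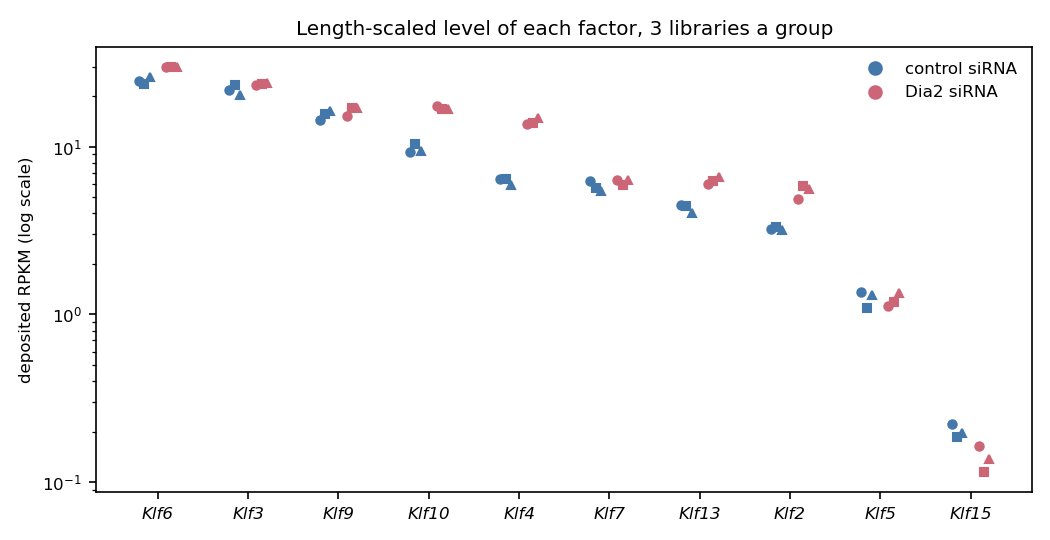
Deposited RPKM (log axis) of each factor in the 3 control (blue) and 3 Dia2 siRNA (red) libraries, ordered by the control mean, with circles, squares and triangles for replicates 1, 2 and 3. Klf6 is highest and Klf15 lowest in both groups, and the red points of Klf10 and Klf4 lie above the blue ones.

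With Dia2 siRNA the order changed in the middle. Klf10, at 17 ± 0.372 RPKM, came to lie beside Klf9 at 16.4 ± 1 RPKM, with overlapping ranges, and Klf4, at 14 ± 0.666 RPKM, no longer overlapped Klf7, at 6.18 ± 0.228 RPKM. Klf13 reached 6.3 ± 0.295 RPKM and overlapped Klf7. The order depends on the gene models used. Klf7 is given a length of 1336 bases and Klf3 one of 2314, whereas their longest GENCODE transcripts have 7662 and 5221 bases. The models of Klf5 (1725 against 3352 bases), Klf9 (3263 against 4486) and Klf15 (2294 against 2482) were also shorter. Reads beyond the shorter models are not in these values. For Klf2, Klf4, Klf6, Klf10 and Klf13 the lengths differed by a factor of 0.995 to 1.02. RefSeq, however, carries the 3′ end of Klf10 (minus strand) to 38291464, past the 38294413 of the counted interval.

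Of the 10 factors 6 passed an adjusted p of 0.05, and each of these was higher with Dia2 siRNA: Klf4, Klf10, Klf2, Klf13, Klf6 and Klf3, in order of fold change. Of all genes tested 59.2% passed in either direction, so a share of 6 in 10 is near the background. By direction, 29.3% of all genes were higher and 29.9% lower, against 6 and 0 of the 10 factors, and this contrast was not tested. The median log2 fold change of the 10 was 0.23, beside 0.01 over all genes tested. The libraries of the groups did not overlap for 7 of the 10, 6 higher and 1 (Klf15) lower, where 64.6% of all genes showed no overlap. Here and below, values per library are CPM, and adjusted p-values come from edgeR's quasi-likelihood test over all genes.

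Klf4, an activator and repressor known for its part in pluripotency and in growth arrest, showed the largest rise of the 10. It stood at 22.4, 22.2 and 22.2 CPM in control replicates 1, 2 and 3, against 52.1, 49.9 and 52.4 CPM in those with Dia2 siRNA. Each Dia2 library held more than 2 times the level of each control library, and the controls had an SD of 0.145 CPM. The rise was 2.31-fold (log2 fold change 1.21 ± 0.05 SE, adjusted p = 6.23e-09). The gene occupies 55527137 to 55532475 on chromosome 4 (GRCm38).

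Klf2, a close relative of Klf4 known from endothelium and from resting T cells, rose less and from a lower level. Its libraries held 6.75, 6.84 and 7.08 CPM in the control and 11.1, 12.6 and 11.8 CPM with Dia2 siRNA. The groups did not overlap, and the Dia2 libraries varied more (SD 0.725) than the controls (SD 0.171). The rise was 1.72-fold (log2 fold change 0.78 ± 0.07, adjusted p = 2.46e-06). Klf2 lies on chromosome 8, 72319062 to 72321654.

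Klf6, described as a repressor of Dlk1 in preadipocytes and as a factor induced by injury, was the most abundant of the 10. It measured 118, 114 and 135 CPM in the control and 158, 149 and 146 CPM in the Dia2 libraries. Control replicate 3 was the highest control and lay closest to the Dia2 values, but the groups did not overlap. The rise was 1.23-fold (log2 fold change 0.30 ± 0.06, adjusted p = 0.00102), and the log2 fold change was 0.37 without that control library. Klf6 lies on chromosome 13, 5861489 to 5870393.

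The remaining activators, Klf5 and Klf7, did not pass. Klf5, known to act in early adipocyte differentiation and in epithelia, held 2.71, 2.14 and 2.76 CPM in the control and 2.45, 2.44 and 2.69 CPM with Dia2 siRNA. The Dia2 values lay within the control range, with a log2 fold change of -0.01 ± 0.13 (adjusted p = 0.975). Klf7, widely expressed and known from neurons, held 9.54, 8.64 and 8.94 CPM against 10.6, 9.41 and 9.85 CPM. Its groups overlapped in that the lowest Dia2 library lay below control replicate 1 (log2 fold change 0.14 ± 0.08, adjusted p = 0.143).

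**Figure D2:**
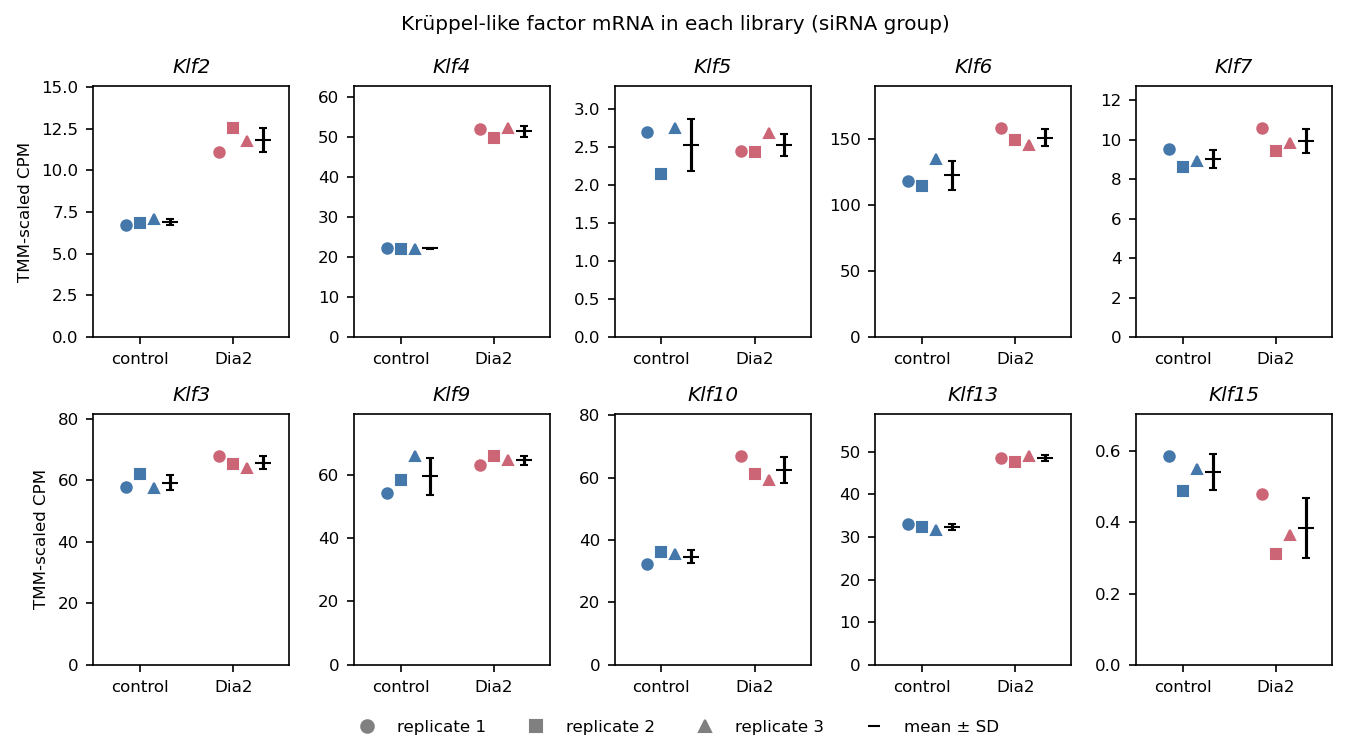
TMM-scaled CPM of each factor in the control and Dia2 siRNA libraries (1 point a library, shape by replicate; bar and line, mean ± SD of 3), each panel with its own axis from 0. Klf2, Klf4, Klf10 and Klf13 show wide gaps between groups, Klf3 and Klf6 narrow ones, and Klf5, Klf7 and Klf9 overlap.

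Among the factors known to recruit Sin3, Klf10 and Klf13 rose and Klf9 did not pass. Klf10, also named TIEG1, is an early target of TGF-beta signalling with a known part in osteoblasts. It stood at 32.5, 36.1 and 35.5 CPM in the control and at 67.1, 61.1 and 59.2 CPM in the Dia2 libraries, with a gap between the groups wider than the range of either. It rose 1.8-fold (log2 fold change 0.85 ± 0.06, adjusted p = 3.17e-07) and lies on chromosome 15, 38294413 to 38300707.

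Klf13, known from T cells, where it regulates the chemokine Ccl5, held 33, 32.4 and 31.7 CPM in the control and 48.7, 47.7 and 49.1 CPM with Dia2 siRNA. Both groups were narrow and far apart, and the rise was 1.5-fold (log2 fold change 0.58 ± 0.05, adjusted p = 1.37e-06). Its locus, 63886351 to 63938915 on chromosome 7, overlaps E030018B13Rik and Gm27252 on the other strand. E030018B13Rik was listed at 0 to 0.125 CPM, and Gm27252 has no listed level. Klf9, a target of the glucocorticoid and thyroid hormone receptors, held 54.2, 58.4 and 65.7 CPM in the control and 63, 66 and 64.6 CPM in the Dia2 libraries. Control replicate 3 was as high as the Dia2 libraries and the groups overlapped (log2 fold change 0.12 ± 0.06, adjusted p = 0.133). Without that library Klf9 passed (0.19, adjusted p = 0.000868), and also without both libraries rich in Rn45s (0.21, adjusted p = 0.000571).

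Klf3, the repressor that binds CtBP, showed the smallest of the 6 rises. Its libraries held 58, 61.9 and 57.6 CPM in the control and 68, 65.2 and 64.1 CPM with Dia2 siRNA, separated by a narrow gap. The rise was 1.11-fold (log2 fold change 0.15 ± 0.05, adjusted p = 0.0184). It lost its call without control replicate 1 (adjusted p = 0.085) or Dia2 replicate 1 or 2 (adjusted p = 0.104 and 0.0612). The call was also lost without both libraries rich in Rn45s (adjusted p = 0.0548) and with no composition factor (adjusted p = 0.0693). Klf15, a factor of glucocorticoid response and of fuel metabolism in muscle, liver and fat, was scarce, at 66, 40 and 38 control counts against 36, 30 and 34 with Dia2 siRNA. In CPM these were 0.587, 0.487 and 0.551 against 0.478, 0.312 and 0.363, so that all Dia2 libraries lay below all controls, yet the log2 fold change of -0.51 ± 0.28 did not pass (adjusted p = 0.145).

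Of the other 16 KLF and Sp genes listed, 10 could be tested, 8 of which were higher and 1 lower, with a median log2 fold change of 0.83. The share past the threshold was 90%, beside 59.2% over all genes (29.3% higher and 29.9% lower), and this contrast was not tested. The genes not tested were Klf1, Klf12, Klf14, Klf17, Sp5 and Sp9. Klf11, the nearest relative of Klf10, held 7.05, 6.92 and 6.06 CPM in the control and 12.5, 11.1 and 11.6 CPM with Dia2 siRNA, a 1.75-fold rise (log2 fold change 0.81 ± 0.08, adjusted p = 4.41e-06) close in size to that of Klf10. Klf8, which like Klf3 binds CtBP, rose 2.04-fold from 1.3 ± 0.162 to 2.66 ± 0.0869 CPM. Klf16, another factor linked to Sin3, was the one that fell, 1.18-fold, from 31.5 ± 1.13 to 26.8 ± 1.44 CPM (adjusted p = 0.00556).

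The Sp factors bind the same kind of GC-rich site. Sp3 rose 1.51-fold from 74 ± 6.94 to 111 ± 5.56 CPM, Sp4 1.9-fold, Sp8 1.8-fold and the abundant Sp1 1.14-fold. Sp6 rose 2.37-fold from 0.383 ± 0.0964 to 0.899 ± 0.101 CPM. Sp7, a regulator of osteoblasts, was close to the floor in the control, with 12, 0 and 10 counts against 52, 82 and 68.

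**Figure D3:**
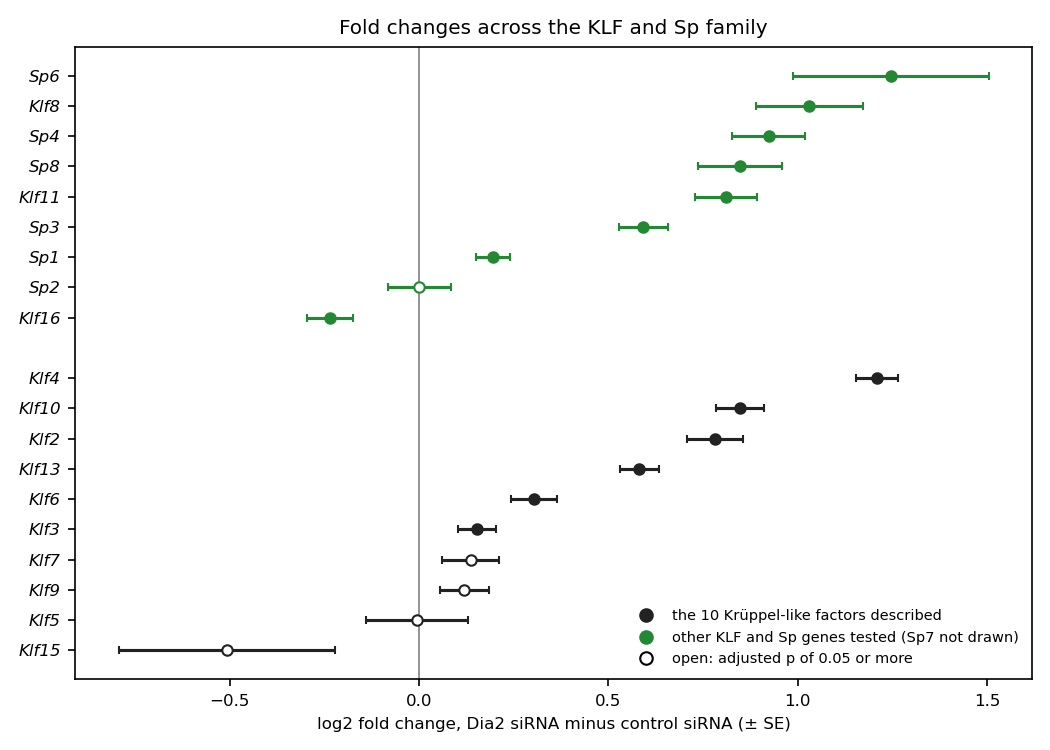
Log2 fold change (Dia2 siRNA minus control siRNA, ± SE) of the 10 factors (black) and of the other KLF and Sp genes tested (green, Sp7 left out because 1 control library had no count); filled points have an adjusted p under 0.05. The points run from Klf15 at -0.51 to Sp6 at 1.25, and Klf16 is the filled point below 0.

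Of 7 genes of the ERK5 kinase cascade and its MEF2 targets, known as inputs to Klf2 and Klf4, 2 were higher and 2 lower, with a median log2 fold change of 0.07. This is 57.1% past the threshold, near the 59.2% over all genes. Mef2c, whose product binds the kind of site marked in the Klf2 promoter, rose 2.51-fold. It went from 6.28, 6.82 and 7.75 CPM in the control to 17.6, 16.8 and 17.7 CPM (log2 fold change 1.33 ± 0.08, adjusted p = 6.03e-08). A link between Mef2c and Klf2 was not tested, and the Klf4 promoter shown holds no MEF2 match. Mef2a passed at 0.14 (adjusted p = 0.0407), a call lost in 5 of the 6 fits with 1 library left out (adjusted p = 0.0885 to 0.173) and with no composition factor (adjusted p = 0.0797). Mapk7, which encodes ERK5 itself, fell 1.23-fold from 29.9 ± 3.57 to 24.2 ± 0.33 CPM, and the upstream kinase gene Map3k2 fell 1.24-fold.

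Of 11 co-repressors and co-activators through which these factors act 6 were lower and 1 higher, with a median log2 fold change of -0.19. Together they are 63.6%, near the background of 59.2% in either direction. By direction, 29.9% of all genes were lower and 29.3% higher, and this contrast was not tested. The list held 6 lower and 3 higher when a mean CPM of at least 1 was required, or 6 and 2 without both libraries rich in Rn45s. The acetyltransferase gene Kat2b fell 1.56-fold from 101 ± 7.14 to 64.5 ± 1.79 CPM, the deacetylase gene Hdac1 1.41-fold, Fhl3, which encodes a partner of Klf3, 1.39-fold, and the co-repressor gene Ctbp2 1.29-fold. Sin3b fell 1.25-fold, while the acetyltransferase gene Ep300 rose 1.14-fold. Of 7 ubiquitin ligases linked to these factors 4 were higher and 1 lower, with a median of 0.20. The share past the threshold was 71.4%, beside the 59.2% over all genes, and this contrast was not tested. Btrc rose 1.42-fold, Siah1a 1.27-fold and Fbxw7 1.23-fold, and Itch fell 1.36-fold.

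Signals that are known to induce single members were read from 2 further lists. Of 7 TGF-beta signalling and feedback genes, the setting of Klf10, 5 were higher and 1 lower, with a median log2 fold change of 0.41. In both lists 85.7% of the genes tested passed the threshold, beside 59.2% over all genes, and this contrast was not tested. Ski, a repressor of SMAD proteins, rose 1.68-fold from 125 ± 5.21 to 211 ± 5.59 CPM, Smad2 1.42-fold, and the inhibitory Smad6 and Smad7 1.33- and 1.31-fold. Tgif1 was the one that fell, 1.28-fold from 55.4 ± 1.64 to 43.4 ± 0.65 CPM. Of 7 glucocorticoid-responsive genes tested, the setting of Klf9 and Klf15, 3 were higher and 3 lower (2 and 3 without both libraries rich in Rn45s), with a median of -0.02. The receptor gene Nr3c1 rose 1.36-fold and Tsc22d3, which encodes the protein GILZ, 2.17-fold from 17.6 ± 1.15 to 38 ± 1.49 CPM. Errfi1, a feedback inhibitor of the EGF receptor, fell 3.87-fold, the kinase gene Sgk1 1.37-fold and the co-chaperone gene Fkbp5 1.28-fold.

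Genes described downstream of Krüppel-like factors did not share 1 direction. Of 9 adipogenic genes tested none was higher and 4 were lower, with a median log2 fold change of -0.26. The share past the threshold, 44.4%, lay below the 59.2% over all genes in either direction. By direction, 29.9% of all genes were lower and 29.3% higher, against 4 lower and none higher of these 9. These contrasts were not tested. Without control replicate 3 the list held 6 lower of 10 tested, without Dia2 replicate 2 it held 5 lower and 1 higher of 9, and without both libraries rich in Rn45s 5 lower of 10. Cebpa, a gene repressed by Klf3 in preadipocytes, held 151, 153 and 147 CPM in the control and 122, 127 and 126 CPM in the Dia2 libraries, a 1.2-fold fall (log2 fold change -0.26 ± 0.04, adjusted p = 0.000179). Cebpb, a target of Klf4 in early adipogenesis, did not pass, at 22.6, 20.6 and 20.9 against 17.6, 21.1 and 18.5 CPM (-0.16 ± 0.07, adjusted p = 0.0773). It passed without Dia2 replicate 2 (adjusted p = 0.0197) or without control replicate 3 (adjusted p = 0.0285). The regulator gene Pparg fell 1.49-fold, and the fat cell genes Fabp4 and Lpl fell 2.16- and 1.82-fold. The gene of the fat cell hormone adiponectin, Adipoq, missed the threshold, with levels of 2.42, 2.46 and 2.58 CPM in the control and 3, 2.64 and 3.4 CPM with Dia2 siRNA. All 3 Dia2 libraries lay above the controls (log2 fold change 0.28 ± 0.13, adjusted p = 0.0768). It was the one called higher without Dia2 replicate 2 (adjusted p = 0.0442).

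Of 9 other reported targets 4 were higher and 3 lower (5 and 3 without both libraries rich in Rn45s), with a median of 0.28. The share past the threshold was 77.8%, beside 59.2% over all genes, and this contrast was not tested. Thbd, which encodes thrombomodulin and is induced by Klf2 and Klf4 in endothelium, held 184, 147 and 154 CPM in the control and 56.2, 53.8 and 55.1 CPM with Dia2 siRNA. It fell 2.94-fold (log2 fold change -1.56 ± 0.07, adjusted p = 8.99e-09), opposite in direction to both factors. S1pr1, a target of Klf2 in T cells, fell 1.31-fold and the cell cycle inhibitor gene Cdkn1a 1.12-fold. Lgals3, a galectin gene repressed by Klf3, rose 1.86-fold from 79.7 ± 2.76 to 149 ± 0.746 CPM, and Eng and Col1a1, both described as Klf6 targets, rose 1.53- and 1.42-fold. Tgfb1, also in this list, did not pass, at 32.8 ± 3.58 against 33.4 ± 1.49 CPM (adjusted p = 0.799). Dlk1, a gene of the adipogenic list that Klf6 is described as repressing, did not pass either (log2 fold change 0.005 ± 0.27, adjusted p = 0.989).

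**Figure D4:**
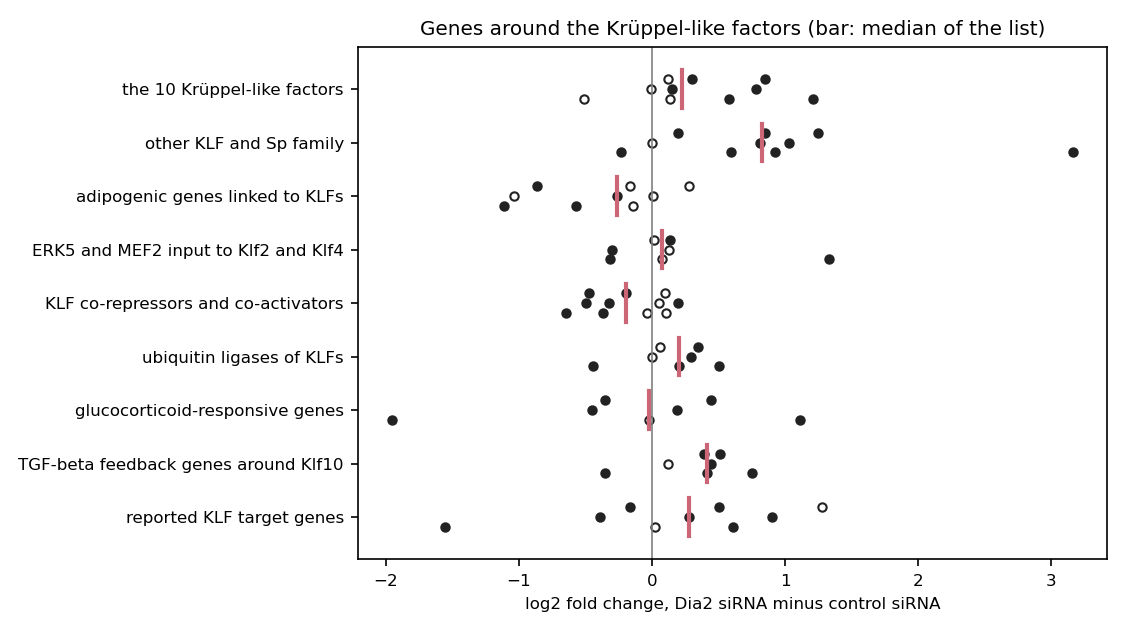
Log2 fold change (Dia2 siRNA minus control siRNA) of each gene tested in the 10 factors and in 8 related lists, 1 point a gene, filled where the adjusted p is under 0.05, with a red bar at the median of the list. Medians run from -0.26 in the adipogenic list to 0.83 in the other KLF and Sp genes.

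Over the 6 libraries, the 3 genes with a mean of at least 10 CPM whose log2 CPM followed Klf4 most closely were P4ha1, which encodes a collagen prolyl hydroxylase, Abcc5, which encodes a membrane transporter, and Igf1r, which encodes the IGF1 receptor. Their Pearson r was 0.9998, 0.9996 and 0.9995, and they rose 1.65-, 1.99- and 1.95-fold. Likeness over 2 groups of 3 mostly reflects the step between the groups, and 829 of 8841 genes had an r above 0.98.

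An siRNA can also lower transcripts that match bases 2 to 8 of either strand in the 3′ UTR. The match to this seed of the antisense strand, AACTTAA, was found in GENCODE M21 transcripts of 2 of the 10 factors, Klf5 and Klf7, against 14.7% of 13001 tested genes with an annotated 3′ UTR. The match to the seed of the other strand, GGACTCT, was found in Klf6, Klf7 and Klf13, against 15.2%. The sites of the antisense seed in Klf5 (chromosome 14, 99314320 to 99314326 and 99314535 to 99314541, plus strand) are shown with the match in capitals, since Klf5 and Klf7 were the members that could carry it.
Klf5, first site: gttccttgttgAACTTAAgactctgtttt
Klf5, further site: gatgtgttgaaAACTTAAccaatatgcaa

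Both sites lie past the end of the Klf5 interval in the count table (99313409), and both Klf7 sites lie past the 3′ end of its interval (64035671, minus strand). Neither gene passed the test, as given above. Klf6 and Klf13, which hold the match to the other strand, were both higher. Whether any of these sites was used was not tested.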

How the data were processed

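RNA sequencing of 3 control and 3 Dia2 siRNA libraries was analysed from 1 deposited table with a count and an RPKM value per gene and library, per the file headers. The submitters' processing notes name bcl2fastq, TopHat2 2.0.6 and HTSeq, and the human builds hg19 and GRCh37. The table holds mouse genes: of 22972 rows with a matching symbol, 99.4% overlapped that gene in GRCm38.p6, so coordinates were read as GRCm38. No source used here gives the strand setting or the annotation. Reads of overlapping and antisense genes therefore cannot be told apart. Genes on the other strand also overlap Klf3 (Gm20033) and Klf7 (Gm13748), and neither has a listed level. Older symbols were updated for 2252 rows.

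Deposited counts passed filterByExpr at its default minima (10 per library after scaling, 15 in total), were scaled by TMM and tested with edgeR 4.0.16 (quasi-likelihood, robust; R 4.3.3), over all genes, with Benjamini-Hochberg adjustment at 0.05. The SE is the absolute log2 fold change divided by the square root of F. The deposited RPKM values, computed by the authors, served for levels between genes, with no test. The fit was tested on simulated data.

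The members and lists were chosen with earlier results of these data known. Named are the 10 factors, Diaph3, up to 4 called genes of each of 8 lists with the largest change and others that describe the list, and the 3 genes most like the member that moved most. A gene of one list is not reported here. Genes added to describe a list (such as Klf11, Klf16, Cebpb, Dlk1, Adipoq, Tgif1, Tgfb1 and Cdkn1a) were picked after their values were seen. Replicates of a group differed by more than sampling noise (chi-square per degree of freedom 7.04 to 90.7), and all 6 libraries were kept. This value was taken without TMM scaling and with Rn45s included, whose share differed between libraries. It therefore cannot show that the libraries came from separate cultures. Intervals are not given for counts, since reads carry no molecular identifiers. Alternatives were DESeq2 1.42.0, limma-voom (limma 3.58.1), other scalings and filters, the replicate block, and each library left out. Halved counts and a fit without the 2 libraries richest in Rn45s were added after seeing the data.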

Additional observations from a re-analysis of the deposited data

How the results depend on the processing

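The count of higher factors was 5 to 7 over the 15 alternatives (5 to 7 with 1 library left out), with none lower in any of them, and the count over all genes was 7343 to 9193. Klf2, Klf4, Klf6, Klf10 and Klf13 passed in all 15, with log2 fold changes of 1.19 to 1.23 for Klf4 and 0.25 to 0.37 for Klf6. Klf3 passed in 9 of the 15. The fold change of Klf5, -0.01 and never past the threshold, turned to 0.0124 with a mean CPM of at least 1, ranged from -0.117 to 0.048 with 1 library left out (above 0 in 4 of these 6 fits) and was 0.0697 without both libraries rich in Rn45s; the cause was not tested. Of 822 comparisons of 55 named genes with the alternatives, 798 kept direction and side of the threshold. Genes such as Dlk1, Tgif1 and Tgfb1 were not among these 55. The replicate numbers showed no sign of pairing: deviations of same-numbered libraries correlated at 0.0036, -0.00137 and -0.0844, and no library correlated best with its own number. With 3 libraries a group, this cannot show that same-numbered libraries were handled apart. With the replicate block 5 factors passed, Klf3 (0.15, adjusted p = 0.0507) being lost, as was Mef2a (0.14, adjusted p = 0.075), and 7772 genes in place of 8380. Klf15 rested on 30 to 66 counts a library.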
